A study of Mus musculus with 8 samples.

Results

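A group of 7 genes through which endothelial cells sense, relay and answer blood flow were followed in embryonic mouse hearts: the ion channel gene *Piezo1*, the transcription factor genes *Klf2* and *Klf4*, the target genes *Nos3* and *Thbd*, and *Edn1* and *Ece1* of the endothelin pathway. They were chosen by name as shear stress-controlled genes of the endocardium, and all 7 were found by Ensembl identifier among the 49315 genes counted. RNA-seq had been carried out on whole hearts at embryonic day 9.5, with 4 wild-type libraries and 4 libraries from homozygous Tbx20EH1Mut embryos. The mutant embryos carry a substitution of neighbouring amino acids in the engrailed homology (EH1) domain of the transcription factor Tbx20, the stretch through which it binds TLE corepressors. The change was introduced into the germline by CRISPR/Cas9, so it is present in every cell, and the line was back-crossed to C57BL/6J. Each library was made from pooled hearts of its genotype, and every heart was used whole, so that endocardium, myocardium and all other cells of the tissue contribute to each value. Wild-type libraries held between 33359322 and 49523086 counts and Tbx20EH1Mut libraries between 36250675 and 38357025. Levels are given as CPM, the counts of a gene over the TMM-scaled library size, in the order of replicates 1 to 4.

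Endothelial cells feel the drag of flowing blood through the cation channel Piezo1, junctional receptors and integrins. A kinase cascade of MEKK3, MEK5 and ERK5 then activates MEF2 factors, which switch on *Klf2* and *Klf4*, and these in turn raise *Nos3*, whose product makes the vasodilator nitric oxide, and *Thbd*, which encodes the anticoagulant receptor thrombomodulin. Sustained flow is known to hold down *Edn1*, the precursor of the vasoconstrictor endothelin-1, while endothelin converting enzyme 1, encoded by *Ece1*, cleaves that precursor. In the embryonic heart, flow-dependent *Klf2* expression marks the endocardium of the cushions and outflow tract. In the paper, Tbx20EH1Mut hearts of the age used here did not loop, and no outflow tract or endocardial cushions could be identified.

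With the edgeR quasi-likelihood test and Benjamini-Hochberg adjustment over 17163 genes, 4 of the 7 genes changed, with *Edn1* and *Thbd* higher and *Nos3* and *Piezo1* lower in Tbx20EH1Mut hearts. The call of *Piezo1*, unlike the others, was lost when most single libraries were left out. Over all genes tested, 29.3% were called in either direction, 14.0% higher and 15.3% lower. The libraries of the genotypes did not overlap for *Edn1*, *Thbd* and *Nos3*, as for 30.5% of all genes tested (14.7% higher and 15.7% lower in the mutant). The median log2 fold change of the 7 genes was -0.19, against 0.00477 over all genes tested. The genes thus did not share a direction, and genes that flow is known to raise stood on both sides, with *Thbd* higher and *Nos3* lower.

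**Figure D1:**
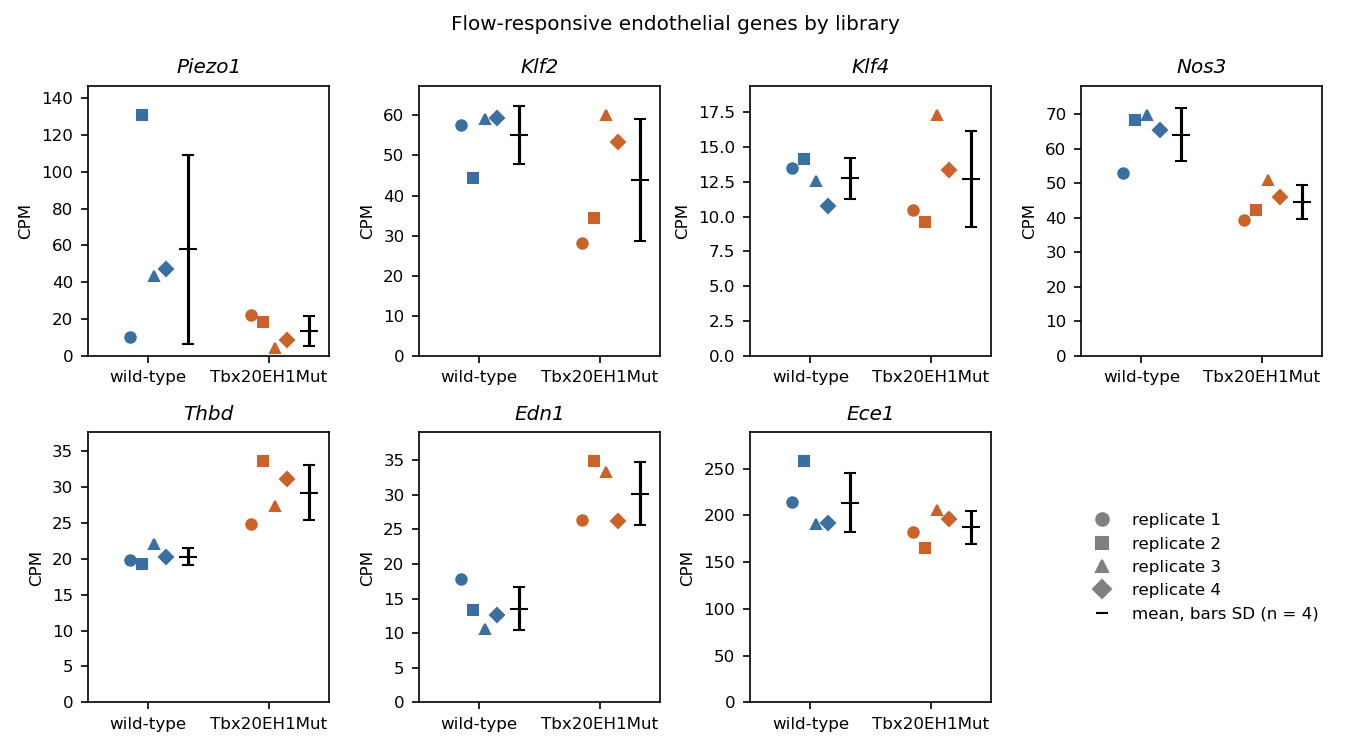
Level of each gene in CPM (vertical axes, from 0) in the 4 wild-type and 4 Tbx20EH1Mut libraries, with symbols for the replicate number and bars for the mean and SD. *Nos3*, *Thbd* and *Edn1* separate the genotypes without overlap, whereas *Piezo1* in wild-type hearts runs from 10.3 to 130.9 CPM.

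*Klf2* (ENSMUSG00000055148, chr8:72319033-72321656 of GRCm38, plus strand, 1847 exonic bases) and *Klf4* (ENSMUSG00000003032, chr4:55527143-55532466, minus strand, 3049 exonic bases) are the relay of the pathway, and the sequence just before each start is shown because this is where the signal from MEF2 is known to be read in *Klf2*. Both are from RefSeq on GRCm38.p6, written 5′ to 3′ on the strand of the gene. For *Klf2* (chr8:72318812-72319032) the capitals mark the match to the MEF2 site, which begins 118 bases before the RefSeq start. For *Klf4* (chr4:55532476-55532725) the capitals mark a pair of overlapping matches to the hypoxia element ACGTG, one on each strand, beginning 182 and 181 bases before the start.
Klf2: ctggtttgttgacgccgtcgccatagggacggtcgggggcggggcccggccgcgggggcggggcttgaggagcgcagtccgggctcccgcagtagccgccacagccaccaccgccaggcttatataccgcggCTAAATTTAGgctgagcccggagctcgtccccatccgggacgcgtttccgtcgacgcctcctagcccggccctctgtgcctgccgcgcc
Klf4: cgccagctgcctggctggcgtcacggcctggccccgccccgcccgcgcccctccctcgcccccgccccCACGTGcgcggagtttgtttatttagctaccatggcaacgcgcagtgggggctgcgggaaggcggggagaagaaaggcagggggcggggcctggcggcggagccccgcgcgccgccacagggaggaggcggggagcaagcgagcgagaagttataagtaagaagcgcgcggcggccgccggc
Both stretches are rich in G and C, at 71.5% for *Klf2* and 74.0% for *Klf4*. RefSeq windows from 250 bases before to 50 after the start were searched on both strands for the 5 genes that have one, namely *Klf2*, *Klf4*, *Edn1*, *Ece1* (4 windows) and *Piezo1*. Of 32851 windows of all genes, 3.19% held a MEF2 site, and among these 5 genes *Klf2* was the one with a match. The KLF box CACCC, present in 57.5% of all windows, was matched in *Klf2*, *Edn1*, *Ece1* and *Piezo1*, and the hypoxia element, present in 19.6%, in *Klf4*, *Edn1* and *Ece1*. Neither the T-box motif GGTGTGA (3.98% of all windows) nor the AP-1 site TGACTCA (5.20%) nor the SMAD box GTCTAGAC (0.213%) was matched in the windows of these 5 genes. The letters of a match do not show that a factor binds there.

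Neither transcription factor gene passed the test. *Klf2* was at 57.7, 44.4, 59.2 and 59.4 CPM in wild-type hearts and at 28.1, 34.3, 60.1 and 53.3 CPM in Tbx20EH1Mut hearts. Mutant replicates 1 and 2 lay below every wild-type library, whereas replicates 3 and 4 lay within or above the wild-type range. The means were 55.2 ± 7.20 and 44.0 ± 15.2 CPM (SD, n = 4 each), and the log2 fold change of -0.33 had a 95% confidence interval from -0.83 to 0.18 (adjusted p = 0.292, edgeR quasi-likelihood test). The relative spread between libraries was wider in the mutant, with a coefficient of variation of 34.6% against 13.1%.

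*Klf4* stood at 13.5, 14.1, 12.5 and 10.8 CPM in the wild type and at 10.5, 9.61, 17.3 and 13.3 CPM in the mutant. Again mutant replicates 1 and 2 were the lowest of the 8 libraries, and mutant replicate 3 was the highest. The means of 12.7 ± 1.46 and 12.7 ± 3.46 CPM were nearly equal, and the interval of the log2 fold change, from -0.44 to 0.43, includes differences of either sign. The sign of this small value turned with upper-quartile scaling. The ratio of *Klf2* to *Klf4* was 4.41 ± 0.988 in wild-type and 3.43 ± 0.551 in Tbx20EH1Mut hearts (exact two-sided permutation test, p = 0.171).

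*Nos3* (ENSMUSG00000028978, chr5:24364810-24384474, plus strand, 26 exons) encodes endothelial nitric oxide synthase. Wild-type hearts held 52.9, 68.1, 69.7 and 65.4 CPM of it and Tbx20EH1Mut hearts 39.4, 42.2, 50.9 and 45.9 CPM. Every mutant library lay below every wild-type library, with mutant replicate 3 just under wild-type replicate 1. *Nos3* fell by 0.52 on the log2 scale (standard error 0.125, 95% interval -0.80 to -0.25, adjusted p = 0.0127, edgeR quasi-likelihood test), from 64.0 ± 7.66 to 44.6 ± 4.96 CPM. The call held with any 1 library left out, where the adjusted p was at most 0.0446 with edgeR. With an offset on GC content and transcript length, an alternative added once the data had been seen, the log2 fold change was -0.29 and the adjusted p 0.191. On the opposite strand, the exons of *Nos3* share 294 bases with *Atg9b* and 1040 with the predicted gene *Gm15587*. Summed over all libraries these genes had 1111 and 160 counts and *Nos3* had 18055.

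*Thbd* (ENSMUSG00000074743, chr2:148404466-148408188, minus strand) is a gene of 1 exon. It was counted at 19.8, 19.2, 22.0 and 20.2 CPM in the wild type, the tightest of the 7 genes, and at 24.8, 33.5, 27.4 and 31.1 CPM in the mutant. All mutant libraries were above all wild-type libraries. Mean *Thbd* rose 1.44-fold, being 20.3 ± 1.22 CPM in wild-type and 29.2 ± 3.88 CPM in mutant hearts (log2 fold change 0.52, 95% interval 0.25 to 0.80, standard error 0.122, adjusted p = 0.0114, edgeR quasi-likelihood test). It stayed called with any 1 library left out, with an adjusted p of at most 0.0428 from edgeR.

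*Edn1* (ENSMUSG00000021367, chr13:42301270-42307989, plus strand, 2344 exonic bases) showed the largest called rise of the 7 genes. Wild-type hearts held 17.8, 13.3, 10.6 and 12.6 CPM and Tbx20EH1Mut hearts 26.4, 34.8, 33.3 and 26.2 CPM. The lowest mutant library was thus well above the highest wild-type library, replicate 1. The mean rose 2.23-fold, being 13.6 ± 3.08 CPM in wild-type and 30.2 ± 4.54 CPM in mutant hearts (log2 fold change 1.16, 95% interval 0.76 to 1.55, standard error 0.177, adjusted p = 0.00167, edgeR quasi-likelihood test). With 1 library left out the log2 fold change stayed between 1.04 and 1.31.

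*Ece1* (ENSMUSG00000057530, chr4:137862237-137965229, plus strand, 23 exonic blocks) was counted at 213.7, 257.6, 190.2 and 191.5 CPM in the wild type and 182.2, 165.3, 205.3 and 195.9 CPM in the mutant. Mutant replicates 1 and 2 lay below all wild-type libraries and the others within their range. Means of 213 ± 31.5 and 187 ± 17.4 CPM gave a log2 fold change of -0.19 (95% interval -0.48 to 0.10, adjusted p = 0.291, edgeR quasi-likelihood test), whose sign turned to 0.05 with the offset on GC content and length. Dropping wild-type replicate 2, which was the highest library, brought the value to -0.08 on the log2 scale (edgeR adjusted p = 0.643). For each unit of *Edn1* there was less *Ece1* in the mutant: the ratio of their CPM was 16.2 ± 3.27 in wild-type and 6.32 ± 1.18 in Tbx20EH1Mut hearts, a description that repeats the rise of *Edn1*, since *Ece1* itself did not pass the test.

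Setting the vasoconstrictor precursor against the vasodilator enzyme, the ratio of *Edn1* to *Nos3* was 0.338, 0.195, 0.151 and 0.192 in wild-type libraries and 0.670, 0.825, 0.655 and 0.571 in Tbx20EH1Mut libraries. Each mutant value exceeded each wild-type value. The mean went from 0.219 ± 0.0815 to 0.680 ± 0.106. The ratio is a description, since *Edn1* was higher and *Nos3* lower in every mutant library and its separation follows from that.

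*Piezo1* (ENSMUSG00000014444, chr8:122481698-122551329, minus strand, 43 exonic blocks and 9935 exonic bases) encodes the mechanically gated channel at the top of the pathway, which red cells are also known to carry. In wild-type hearts it was at 10.3, 130.9, 43.3 and 47.1 CPM, and in Tbx20EH1Mut hearts at 22.0, 18.4, 4.22 and 8.85 CPM. The genotypes overlapped, since wild-type replicate 1 lay below mutant replicates 1 and 2. Between wild-type libraries the level differed 12.8-fold, the widest spread of the 7 genes, with replicate 2 far above the rest. The means were 57.9 ± 51.4 and 13.4 ± 8.27 CPM, and *Piezo1* fell by 2.11 on the log2 scale (standard error 0.691, 95% interval -3.65 to -0.57, adjusted p = 0.0435, edgeR quasi-likelihood test). The exact two-sided permutation test of its CPM gave p = 0.0857. Leaving out any 1 library other than wild-type replicate 1 raised the adjusted p of the edgeR test above 0.05, up to 0.136 without wild-type replicate 2, where the log2 fold change was -1.31.

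The libraries at both ends of the *Piezo1* range were also at both ends for other long, GC-rich transcripts, while the order of the libraries between them differed. Its longest annotated transcript has 8219 bases with a GC content of 59.1%. Over 244 other genes with transcripts of at least 6000 bases and a GC content of at least 55%, the median deviation of log2 CPM from the mean of the 8 libraries was -0.18, 0.63, 0.00336 and 0.10 in wild-type replicates 1 to 4 and 0.03, -0.11, -0.35 and -0.14 in mutant replicates 1 to 4. *Piezo1* itself deviated by -1.03, 2.58, 0.99 and 1.11 and by 0.03, -0.22, -2.22 and -1.24, so that wild-type replicate 2 was the highest and mutant replicate 3 the lowest library in both. For 867 genes with transcripts under 2000 bases and a GC content under 45%, the same libraries stood at the other end, at -0.35 and 0.30. Of the 244 genes, 52 were called lower and 16 higher in the mutant. Without wild-type replicate 2 and mutant replicate 3, a choice made once the data had been seen, the log2 fold change of *Piezo1* was -1.04 (adjusted p = 0.162, edgeR quasi-likelihood test). With the offset on GC content and length it was -1.71 and stayed called (adjusted p = 0.0316, edgeR). The exons of *Piezo1* also share 2441 bases (24.6%) with *Ctu2*, a gene of the opposite strand. Summed over the 8 libraries *Ctu2* had 8748 counts and *Piezo1* 13107, and *Ctu2* went from 30.2 ± 1.97 to 22.9 ± 0.389 CPM (adjusted p = 0.0140, edgeR). The part of length, GC content and *Ctu2* reads in the *Piezo1* difference was not tested beyond these fits.

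**Figure D2:**
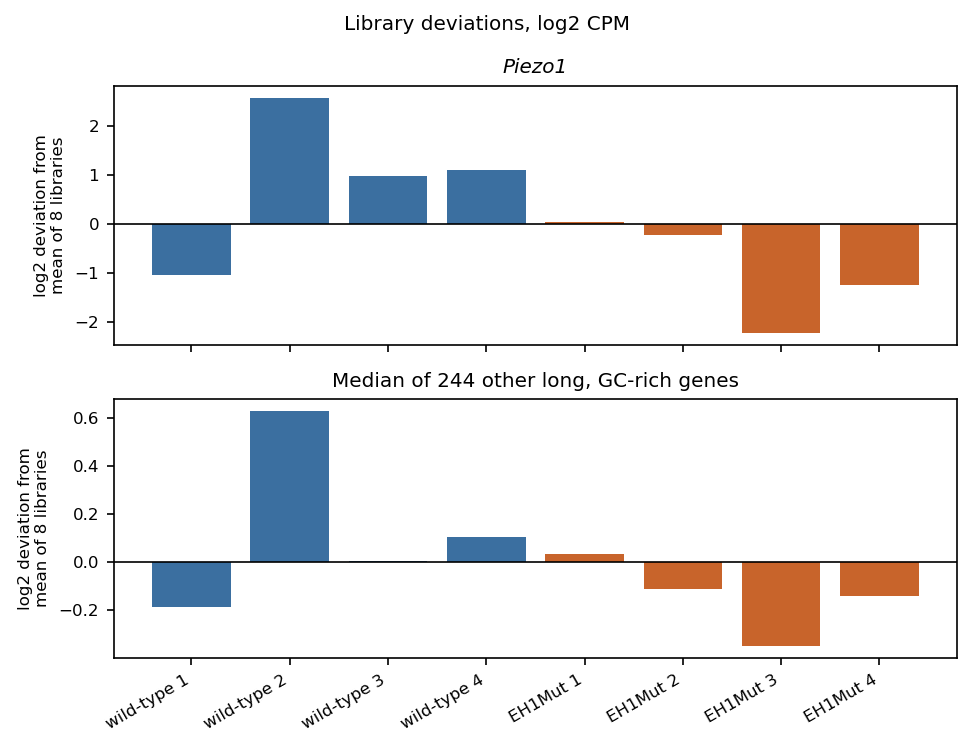
Deviation of log2 CPM from the mean of the 8 libraries (vertical axes) for *Piezo1* (top) and for the median of 244 other long, GC-rich genes (bottom) in each library. Wild-type replicate 2 is highest and mutant replicate 3 lowest in both panels, at 2.58 and -2.22 for *Piezo1* and at 0.63 and -0.35 for the other genes.

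Per kilobase of exon, *Ece1* was the most abundant of the 7 messages in wild-type hearts at 40.2 ± 5.94 CPM per kb, followed by *Klf2* at 29.9 ± 3.90 and *Nos3* at 15.5 ± 1.85. The libraries of these neighbours did not overlap. Then came *Piezo1*, *Edn1*, *Thbd* and *Klf4*, at 5.83 ± 5.17, 5.79 ± 1.31, 5.45 ± 0.327 and 4.18 ± 0.478 CPM per kb, where *Piezo1* spanned the whole group, *Edn1* overlapped *Thbd* and *Klf4*, and *Thbd* lay above *Klf4* in every library. In Tbx20EH1Mut hearts *Edn1*, at 12.9 ± 1.94 CPM per kb, stood above *Nos3*, at 10.8 ± 1.20, with overlapping libraries, and *Piezo1* was the lowest at 1.35 ± 0.832.

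The labelled tissue was checked with markers. Those of cardiomyocytes summed to 29210 to 32890 CPM in wild-type and 25470 to 33710 CPM in mutant libraries, with 1 of 8 called lower. Those of proepicardium and mesothelium summed to 54.1 to 174 CPM and 117 to 160 CPM, with 1 of 5 tested called higher. Foregut, pharyngeal and blood cell markers are given further below. All 12 pan-endothelial markers were detected, and their summed level rose from between 943.4 and 1059 CPM in the wild type to between 1171 and 1292 CPM in the mutant (exact two-sided permutation test, p = 0.0286). Of the 12, 6 were called higher, namely *Pecam1*, *Egfl7*, *Kdr*, *Esam*, *Cldn5* and *Emcn*, and the other 6 did not pass the test. The call of *Emcn* (adjusted p = 0.0405, edgeR) was lost when wild-type replicate 2, 3 or 4 or mutant replicate 3 or 4 was dropped. The sum of 6 endocardial markers overlapped, with 509.7 to 766.5 CPM in wild-type and 569.5 to 630.7 CPM in mutant libraries, and 1 of them, *Tmem100*, was called higher and none lower. Without wild-type replicate 1, 2 were lower, and scaled to the pan-endothelial sum 3 were. In whole hearts, a change in the number of endothelial cells and a change in the message per cell cannot be told apart.

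The 7 genes were therefore also expressed relative to the summed pan-endothelial markers. *Nos3* went from 6.34 ± 0.519% of that sum in wild-type to 3.65 ± 0.351% in Tbx20EH1Mut hearts, *Ece1* from 21.2 ± 2.79% to 15.3 ± 1.06% and *Edn1* from 1.36 ± 0.371% to 2.48 ± 0.438%. For these 3 genes the genotypes did not overlap (exact two-sided permutation test, p = 0.0286, or 0.0667 adjusted over the 7 genes, so that none passed after adjustment). *Klf2* was at 5.50 ± 0.881% and 3.58 ± 1.15% (p = 0.0571, same exact test), and *Thbd* at 2.02 ± 0.148% and 2.39 ± 0.341% (p = 0.0857). When the same sum replaced library size in the edgeR model, *Klf2* (log2 fold change -0.62, adjusted p = 0.0459) and *Ece1* (-0.47, adjusted p = 0.0143) passed the test, and *Thbd* (0.25, adjusted p = 0.155) no longer did. The 12 markers in the sum were themselves split, with 4 called higher and 3 lower in that fit. Over all genes the median log2 fold change under that scaling was -0.27, and of 17163 genes 1197 were called higher and 5401 lower. *Nos3*, *Edn1* and *Piezo1* (-2.33, adjusted p = 0.0200, edgeR) kept their direction and their call under it, and *Klf4* (-0.29, adjusted p = 0.243) did not pass. As shares of the sum *Piezo1* (5.59 ± 4.79% and 1.11 ± 0.713%, exact test, p = 0.0857) and *Klf4* (1.26 ± 0.153% and 1.03 ± 0.263%, p = 0.171) overlapped. Against the endocardial markers, a reference added after the data were seen, *Edn1* and *Thbd* were higher in the mutant without overlap (p = 0.0286, exact test, 0.1 adjusted over the 7 genes), and the log2 difference of *Nos3* was -0.45 (p = 0.0571). *Klf2* (-0.31, p = 0.343, exact test) and *Ece1* (-0.11, p = 0.514) overlapped against that reference.

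**Figure D3:**
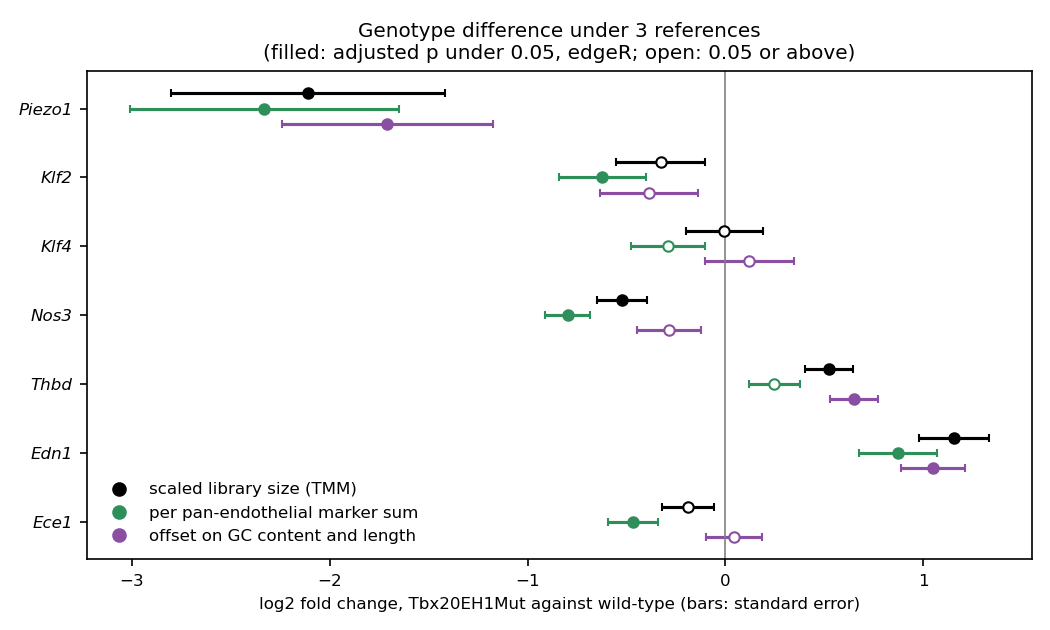
Log2 fold change of each gene, Tbx20EH1Mut against wild-type (horizontal axis, bars show the standard error), with the scaled library size, the pan-endothelial marker sum or an offset on GC content and length as reference. *Edn1* stays between 0.87 and 1.16 and filled under all 3, whereas *Ece1* moves from -0.47 to 0.05 and *Nos3* from -0.80 to -0.29.

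Upstream of the KLF factors, 16 of 17 further genes for flow sensors and their junction partners were tested. Of these, 2 were higher and 2 lower, with a list median of -0.14. With the offset on GC content and length 5 were higher and 2 lower (median 0.07), and scaled to the pan-endothelial sum 1 was higher and 6 were lower (median -0.41). Over all 17163 genes, 14.0% were called higher and 15.3% lower with TMM scaling alone, the background for the lists below too. The offset gave 2720 higher and 3169 lower. Scaling to that sum gave 1197 higher and 5401 lower with a median of -0.27, the background for the lists below as well. *Pecam1*, a junctional adhesion molecule, rose from 83.0 to 118 CPM (log2 fold change 0.51) and *Kdr*, the VEGF receptor that acts with it, from 109 to 176 CPM (0.68). *Gna11*, a G protein subunit, fell by 0.64 on the log2 scale from 93.7 to 60.1 CPM, and the fibronectin receptor subunit gene *Itga5* fell by 0.44 from 154 to 113 CPM, a call kept with 1 library left out only where that was wild-type replicate 1 or 2 (adjusted p of at most 0.0703 otherwise, edgeR). *Pecam1* and *Kdr* also belong to the pan-endothelial markers above.

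Of the 13 genes for the MEKK3-ERK5-MEF2 cascade and the CCM proteins that restrain it, 3 were lower and 10 did not pass the test, with a list median of 0.01. Scaled to the pan-endothelial sum 6 were lower, and under upper-quartile scaling or the offset on GC content and length 2 were higher and 3 lower. *Map3k3*, which encodes MEKK3, was at 22.1, 73.8, 47.8 and 45.8 CPM in wild-type and 20.7, 29.9, 18.1 and 16.6 CPM in mutant libraries. Wild-type replicate 1 was inside the mutant range and replicate 2 the highest, the same libraries as for *Piezo1*. It fell by 1.15 on the log2 scale (adjusted p = 0.0236, edgeR quasi-likelihood test). *Mef2d* fell by 0.58 from 112 to 74.7 CPM, and *Heg1*, the transmembrane partner of the CCM complex, fell by 0.74 from 72.7 to 43.7 CPM. The calls of *Map3k3* and *Mef2d* were kept with 1 library left out only where that was wild-type replicate 1 or mutant replicate 2, and were lost in the other 6 fits (adjusted p of at most 0.0733 and 0.0861, both without mutant replicate 4, edgeR), while that of *Heg1* was kept in all 8. The ERK5 gene *Mapk7* (43.4 and 45.6 CPM) and the CCM genes *Krit1*, *Ccm2* and *Pdcd10* did not pass the test.

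Downstream, 16 of 18 further flow-induced or KLF-dependent genes were tested, with 5 higher, 3 lower and a list median of 0.02. The number lower was 5 without wild-type replicate 1, and 4 were higher and 5 lower when scaled to the pan-endothelial sum (median -0.26). *Lyve1*, a hyaluronan receptor, rose from 4.03 to 11.3 CPM (log2 fold change 1.49), *Gja4*, encoding connexin 37, from 35.2 to 75.6 CPM (1.10) and *Klf6* from 68.7 to 131 CPM (0.93, with overlapping libraries). The call of *Klf6* was lost without wild-type replicate 3 or 4 or mutant replicate 3 or 4, with an adjusted p of at most 0.0674 from edgeR. *Plpp3* and *Hmox1* were also higher. *Aqp1*, the water channel gene, fell by 1.18 from 7.44 to 3.28 CPM, and the sphingosine 1-phosphate receptor gene *S1pr1* and *Slc9a3r2* fell by 0.67 and 0.62. Thus the induced genes, like *Nos3* and *Thbd*, were split in direction.

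The genes that laminar flow is known to repress were mostly higher in the mutant. Their list was chosen with earlier results of these data known, so the counts are a description. Over all genes tested, 14.0% were called higher and 15.3% lower. Of the 9 flow-repressed genes tested, 7 were called higher, 1 lower and 1 not at all. Their median log2 fold change was 1.21 against 0.00477 over all genes. Among those with at least 10 counts in every library, which leaves out *Esm1*, 6 of 8 were higher and 1 lower (median 1.07). *Esm1*, a tip cell proteoglycan, rose from 0.0515 to 2.63 CPM (10 counts in all wild-type and 384 in all mutant libraries, log2 fold change 5.51). *Apln*, the ligand of the apelin receptor, rose from 1.13 to 8.99 CPM (2.99), the chemokine gene *Ccl2* from 1.33 to 5.29 CPM (2.01) and the YAP target gene *Ccn2* from 42.9 to 135 CPM (1.65). *Pdgfb*, *Angpt2* and *Ccn1* were also higher. *Vcam1* fell by 1.60 from 142 to 46.7 CPM. The counts of 7 higher and 1 lower were the same with any 1 library left out.

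The hypoxia response was higher in the mutant as well. All 10 of its genes tested were called higher (median log2 fold change 1.64). Scaled to the pan-endothelial sum 8 were. Without wild-type replicate 3 or 4 or mutant replicate 1 the number was 9, as *Pfkfb3* lost its call (adjusted p of at most 0.0614, edgeR). The summed level of the 10 genes was 1712 to 2012 CPM in wild-type and 3447 to 4095 CPM in mutant libraries (exact two-sided permutation test, p = 0.0286). *Esm1*, *Apln*, *Angpt2* and *Edn1* are themselves known to answer to low oxygen. The immediate-early genes, which also respond to dissection, summed to 290.3, 272.7, 261.3 and 264.5 CPM in the wild type and 397.4, 414.1, 523.8 and 490.4 CPM in the mutant, with 6 of 13 called higher. *Klf2*, *Klf4* and *Klf6* are early response genes as well. The part of either response in the levels of the 7 genes or of the flow-repressed genes was not tested.

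**Figure D4:**
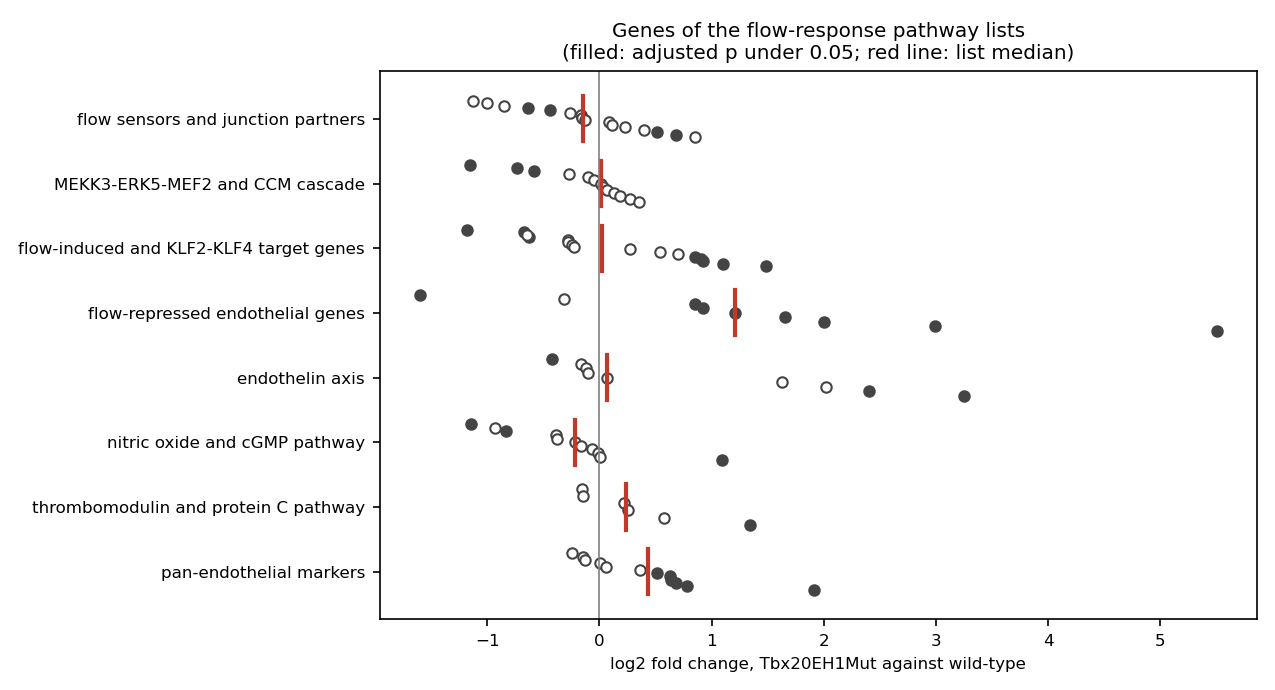
Log2 fold change, Tbx20EH1Mut against wild-type (horizontal axis), of the tested genes of 7 pathway lists and of the pan-endothelial markers, with the list median as a red line. The flow-repressed genes have their median at 1.21, and the other pathway lists between -0.22 and 0.24.

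In the endothelin pathway beyond *Edn1* and *Ece1*, 2 of 9 genes tested were higher, 1 was lower and the median was 0.07. These counts moved with the setting, to 4 higher and 0 lower with the replicate block or without wild-type replicate 2, to 2 higher and 4 lower when scaled to the pan-endothelial sum, and to 0 higher and 1 lower of the 5 genes with at least 10 counts in every library. *Ednra*, the receptor gene of the heart and neural crest, was at 61.9 and 57.1 CPM (log2 fold change -0.12, adjusted p = 0.460, edgeR) and *Ednrb* at 47.3 and 42.2 CPM, and neither passed the test. *Ece2*, a relative of *Ece1*, fell by 0.42 from 14.3 to 10.7 CPM, and its call was kept with 1 library left out only where that was wild-type replicate 1 or mutant replicate 2 (adjusted p of at most 0.122 otherwise, edgeR). The homeobox genes *Dlx3* and *Dlx6*, which endothelin signalling turns on in the pharyngeal arches, rose from 0.371 to 3.53 CPM (3.25, with overlapping libraries) and from 0.464 to 2.44 CPM (2.41).

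*Edn1* is also known to be made by pharyngeal epithelium and arch mesoderm. The 9 foregut epithelium markers summed to between 189.6 and 294.4 CPM in wild-type and between 654.6 and 886.3 CPM in mutant libraries, with 5 of 9 called higher and all 9 detected, though most of the sum was *Krt8* and *Krt18*. The number called higher was 9 when wild-type replicate 2 was dropped, 2 when wild-type replicate 4 was, and 3 for wild-type replicate 3 or mutant replicate 1, 2 or 4. The 8 pharyngeal arch and neural crest markers summed to 57.5 to 71.8 CPM and 42.6 to 121 CPM, with 1 of 7 tested called higher and *Sox10* and *Gsc* at 0 counts in at least 1 library. In mutant replicates 1 to 4 the foregut sums were 886.3, 783.2, 654.6 and 828.4 CPM. The arch sums were 121, 99.4, 42.6 and 66.6 CPM, and *Edn1* was at 26.4, 34.8, 33.3 and 26.2 CPM in the same libraries. The part of these cells in the rise of *Edn1* was not tested.

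Of 11 further genes for nitric oxide and cGMP signalling, 1 was higher and 2 lower, with a median of -0.22. The number lower was 4 without wild-type replicate 1 and with the offset on GC content and length, and 6 when scaled to the pan-endothelial sum. *Gch1*, which encodes the first enzyme for the cofactor of nitric oxide synthase, fell by 0.84 from 12.6 to 7.06 CPM, and *Nostrin*, whose product guides the synthase inside the cell, fell by 1.15 from 2.08 to 0.937 CPM. *Ddah2*, which breaks down an inhibitor of the enzyme, rose from 186 to 395 CPM (1.09). The guanylate cyclase genes *Gucy1a1* and *Gucy1b1* were at 48.1 and 43.9 CPM in the wild type and 41.3 and 33.7 CPM in the mutant and did not pass the test. Around thrombomodulin, 1 of 6 genes tested was higher and 5 did not pass, with a median of 0.24. Without wild-type replicate 1, 3 of 7 tested were higher, and 2 of 7 without mutant replicate 3. *Tfpi*, the inhibitor of tissue factor, rose from 88.9 to 225 CPM (1.34), while the protein C receptor gene *Procr* (3.23 and 3.75 CPM) did not pass the test. The calls of *Gch1*, *Nostrin*, *Ddah2* and *Tfpi* were kept with any 1 library left out.

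Blood cells share some of the 7 genes, *Piezo1* and *Klf2* among them. Erythroid markers summed to 1890, 1774, 3722 and 4624 CPM in wild-type and 1037, 793.8, 326.8 and 893.5 CPM in mutant libraries, and 7 of 8 tested were called lower. Macrophage and megakaryocyte markers summed to 22.3 to 24.8 CPM and 17.8 to 29.0 CPM, with *Ptprc*, *Cx3cr1* and *Fcgr3* at 0 counts in at least 1 library. The part of erythroid cells in the *Piezo1* and *Klf2* values was not tested. Wild-type replicates 1 and 2, with nearly equal erythroid sums, held the lowest and the highest *Piezo1* level of their genotype, whereas mutant replicate 1 was the highest and mutant replicate 3 the lowest of the mutant libraries in both measures.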

How the data were processed

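Each library came from pooled E9.5 hearts of a single genotype, wild-type or homozygous Tbx20EH1Mut. A company made and sequenced the libraries from poly-A RNA and ran a first analysis. Per the labels, the submitters' processing notes name Trimmomatic 0.36, STAR 2.5.2b and GRCm38. The counting tool and its strand setting are not given in the sources used here. The authors deposited 1 table of raw counts per Ensembl gene for each of the 8 libraries, without normalization. Of 49315 identifiers, 48970 were matched to a symbol. Of the GENCODE M21 genes found in the tables, 91.4% had the same start and end. Genotype and replicate number came from the sample labels. Within each genotype, libraries differed beyond sampling noise. The paper calls them biological replicates, while nothing in the labels tells how the pools were drawn. The p-values set the genotype difference against the spread between these libraries.

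Genotypes were compared with edgeR 4.0.16 on R 4.3.3 (filterByExpr, TMM, quasi-likelihood test, genotype as the only term, Benjamini-Hochberg adjustment over 17163 genes, called at an adjusted p under 0.05), a procedure tested on simulated data. All 7 members passed the filter on low counts. Single values were compared by exact two-sided permutation of 70 arrangements, whose smallest p is 0.0286. Ratios used summed CPM of marker genes. GC content and length were those of the longest GENCODE transcript, and the offset was a loess trend (span 0.3). Log2 levels had a pseudocount of 0.5 CPM. Promoter windows were RefSeq's on GRCm38.p6, and 5 of the 7 genes had one.

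The members and all lists were chosen with earlier results of these data known, and 1 gene of the thrombomodulin list was taken out and is not reported here. Named were all 7 members and, of each pathway list, up to 4 called genes with the largest absolute log2 fold change and a mean of at least 1 CPM, and other named genes were picked after their values were seen. Genes most like a member were the 3 with the highest Pearson correlation of log2 CPM after subtraction of genotype means, limited to genes averaging 5 CPM or more. Alternatives were RLE, upper-quartile or no scaling, DESeq2 1.42.0, limma-voom (limma 3.58.1), other filters, a log2 fold change threshold of 0.5, a replicate block, the pan-endothelial sum as library size and each library left out. An offset on GC content and length, the removal of wild-type replicate 2 with mutant replicate 3, and endocardial markers as reference were added after the data had been seen. Tables were joined in Python 3.11.15 with pandas 2.3.3 and numpy 2.4.6, and plots drawn with matplotlib 3.10.9.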

Additional observations from a re-analysis of the deposited data

Results flagged for a closer look

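The *Klf2* level of 44.4 CPM in wild-type replicate 2 stood apart from the other 3 wild-type libraries, which lay between 57.7 and 59.4 CPM. Its gap to the nearest of them was 0.887 of the range of the group, more than Dixon's 95% limit for 4 samples allows. Chance marks about 1 in 20 groups in this way, and 14 groups (7 genes in each genotype) were examined. Without this library the log2 fold change of *Klf2* was -0.41 (adjusted p = 0.228, edgeR quasi-likelihood test). Over the 8 removals of 1 library it lay between -0.16 (without mutant replicate 1, adjusted p = 0.585, edgeR) and -0.51 (without mutant replicate 3, adjusted p = 0.109), and no removal brought it past the threshold.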

How the results depend on the processing

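*Edn1* kept its direction and its call under all 11 alternatives that kept its test and with each library left out. *Nos3* kept both except under the offset on GC content and transcript length (-0.29), and *Thbd* except with the pan-endothelial sum as library size (0.25). With that sum *Klf2* (-0.62) and *Ece1* (-0.47) were called, and the split of calls over all genes moved from 2406 higher and 2618 lower to 1197 and 5401. Upper-quartile scaling gave 2859 and 1997. *Ece1* changed sign under the offset (0.0451). *Klf4*, never called, turned positive with upper-quartile scaling (0.0784), the offset (0.12) and, as a ratio, the endocardial reference (0.0350), and ranged from -0.18 to 0.10 with 1 library left out. *Piezo1* lost its call with upper-quartile scaling (-1.99), limma-voom (-1.87), the replicate block (-2.04) and without wild-type replicate 2 and mutant replicate 3 (-1.04), and ranged from -2.46 to -1.31 with 1 library left out. The cause of these changes was not tested. Same-numbered libraries had correlations of deviations of -0.35, 0.38, 0.08 and 0.08, so the numbers do not pair the samples, and the replicate block changed no other call among the 7 genes. Genes called over all tested numbered 3945 with the replicate block, and between 3001 (without wild-type replicate 4) and 6586 (without wild-type replicate 1) with 1 library left out. At this depth every member had at least 135 counts in each library, and 8 libraries limit what a missed threshold can show.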

Other observations

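Of 12 other KLF family genes tested, 3 were called higher and 2 lower in the mutant (median log2 fold change 0.11). With the replicate block 1 was higher and 1 lower, and scaled to the pan-endothelial sum 1 was higher and 3 were lower. *Klf1*, the erythroid member, fell by 2.43 on the log2 scale from 5.63 to 1.04 CPM, beside the erythroid markers. *Klf5* rose from 1.13 to 3.76 CPM (log2 fold change 1.73). *Klf7* (25.5 to 43.9 CPM, 0.78) and *Klf13* (52.9 to 74.9 CPM, 0.50) were also called higher, and *Klf16* was called lower (28.4 to 22.5 CPM, -0.34). The calls of *Klf7* and *Klf13* were lost in 6 and 3 of the 8 fits with 1 library left out, the latter without wild-type replicate 3 or 4 or mutant replicate 4. *Klf7* stayed called without wild-type replicate 1 or mutant replicate 2. The call of *Klf16* was also lost in 6 of the 8, and kept without wild-type replicate 1 or mutant replicate 3.

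With genotype means subtracted, the genes whose log2 CPM was most like that of a member over the 8 libraries, among 10480 compared, are given as a description only, since all share libraries and depth. They were *Acta2* (r = 0.977), *Ist1* and *Tmx3* for *Klf2*, *Nlk* (0.993), *Topors* and *Kifap3* for *Klf4*, *Ednra* (0.987), *Mrps2* and *Gpr22* for *Nos3*, and *Creb3l1* (0.972), *B3galt6* and *Polr1c* for *Edn1*. For *Ece1* they were *Setd1b* (0.993), *Zc3h11a* and *Nhsl2*, for *Thbd* *Eif1a* (0.949), *Entpd5* and *Mat2a*, and for *Piezo1* *Rexo1* (0.999), *Hdac6* and *Krba1*.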
